A study of Mus musculus with 12 samples.

Results

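The genes for 7 receptor chains of the common gamma-chain cytokine family were followed by RNA sequencing in sorted CD8 T cells: *Il7r*, *Il2rb*, *Il4ra*, *Il21r*, *Il2ra*, *Il15ra* and *Il2rg*. They were chosen by symbol from a table of read counts for 55421 genes. Each symbol matched 1 row, each had 97 or more counts in every library, and all 7 were among the 14460 genes that passed a filter on low counts. The sorted cells were OT-I cells, which carry a transgenic T cell receptor for an ovalbumin peptide. They had been transferred into host mice, which were infected with ovalbumin-expressing *Listeria monocytogenes*, and were recovered from the spleen. The 12 libraries form 6 groups of 2: Rroid2 KO and Rroid2 WT MPEC (memory precursor effector cells) on day 14 after infection, Rroid2 KO and Rroid2 WT SLEC (short-lived effector cells) on day 14, and Rroid2 KO and Rroid2 WT SLEC on day 7. All groups therefore share the T cell receptor, the transfer, the infection and the organ, and the genotype is that of the transferred cells. The sources used here do not state how the Rroid2 deletion was made, the age and strain of the hosts, or whether cells of several hosts were pooled, and the deletion itself was not analysed here. The labels do not say that the libraries of a group came from separate animals, so the p-values measure only the spread between these libraries, which may be technical.

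Receptors of this family pair a cytokine-specific chain with the shared common gamma chain, the product of *Il2rg*, and signal through the kinases JAK1 and JAK3 to STAT transcription factors. IL-7 and IL-15 are known for keeping memory CD8 T cells alive, IL-2 for driving effector expansion, and IL-4 and IL-21 for shaping differentiation. By convention SLEC are sorted as KLRG1-high cells that are low for CD127, the protein of *Il7r*, and MPEC as the converse. The sources used here do not state the gates, so the difference in *Il7r* between MPEC and SLEC is described below without a test.

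The genes lie on 4 chromosomes in GRCm38, by the GENCODE M21 annotation. *Il7r* (ENSMUSG00000003882.5) spans chr15:9505788-9530176 on the minus strand and *Il2rb* (ENSMUSG00000068227.9) spans chr15:78479256-78495271 on the minus strand. *Il2ra* (ENSMUSG00000026770.5, chr2:11642807-11693193) and *Il15ra* (ENSMUSG00000023206.16, chr2:11705290-11734317) are both on the plus strand, 12.1 kb apart. *Il4ra* (ENSMUSG00000030748.9, chr7:125552120-125579474) and *Il21r* (ENSMUSG00000030745.9, chr7:125603429-125633570) are both on the plus strand, 24.0 kb apart. *Il2rg* (ENSMUSG00000031304.18) spans chrX:101264378-101268255 on the minus strand. Exons of *Il2rg* share 728 bases with the same-strand gene Gm20489 and exons of *Il4ra* share 571 bases with the antisense gene Gm44876. Both of those genes had 0 counts in all 12 libraries, but the way reads in the shared stretches were assigned is not stated.

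RefSeq promoter entries for GRCm38.p6 matched 6 of the 7 genes, all but *Il2rb*. The 250 bases before the RefSeq start are printed for the gene whose level varied most across the libraries (*Il7r*), the one that varied least (*Il21r*) and the shared chain (*Il2rg*), each read 5′ to 3′ on the gene's own strand. Capitals mark matches on either strand to GGAA, the core of sites for ETS factors, to TGTGGT, the core of RUNX sites, and to TGTTTAC, a FOXO site; ETS, RUNX and FOXO factors are among the known regulators of *Il7r*. 
Il7r, chr15:9529877-9530126, minus strand: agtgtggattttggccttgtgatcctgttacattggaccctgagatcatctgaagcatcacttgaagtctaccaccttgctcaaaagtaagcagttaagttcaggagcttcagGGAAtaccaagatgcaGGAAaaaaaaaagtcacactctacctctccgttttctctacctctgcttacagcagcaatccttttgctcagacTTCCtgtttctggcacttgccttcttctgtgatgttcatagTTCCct
Il21r, chr7:125603179-125603428, plus strand: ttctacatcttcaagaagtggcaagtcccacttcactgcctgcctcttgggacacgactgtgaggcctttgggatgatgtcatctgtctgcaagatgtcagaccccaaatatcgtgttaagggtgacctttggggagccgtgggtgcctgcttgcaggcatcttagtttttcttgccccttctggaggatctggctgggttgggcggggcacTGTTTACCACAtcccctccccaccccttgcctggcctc
Il2rg, chrX:101268256-101268505, minus strand: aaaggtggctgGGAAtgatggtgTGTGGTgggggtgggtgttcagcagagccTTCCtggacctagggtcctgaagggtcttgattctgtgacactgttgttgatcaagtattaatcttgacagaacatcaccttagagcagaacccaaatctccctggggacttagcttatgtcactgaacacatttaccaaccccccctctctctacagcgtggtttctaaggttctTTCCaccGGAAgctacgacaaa
The *Il7r* window held 4 GGAA matches and neither of the other motifs. The *Il2rg* window held 4 GGAA matches and 1 TGTGGT match. The *Il21r* window held no GGAA match, and its 1 TGTGGT match and 1 TGTTTAC match overlap. Of 32851 RefSeq windows of the same length, 93.4% held GGAA, 14.0% held TGTGGT and 3.17% held TGTTTAC. These matches describe letters and are not measured binding sites. The RefSeq and GENCODE starts coincide for *Il21r* and *Il2rg*. For *Il7r* the RefSeq start lies 300 bases downstream of the GENCODE gene start, so its window is inside the span given above: 3 of the 4 GENCODE transcripts start downstream of the window and 1 starts upstream of it.

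Total counts per library ran from 7603551 to 14026594, and libraries of the same group had Spearman correlations of 0.966 to 0.981 across the tested genes. Levels are given in CPM, counts scaled to a common library size with a factor for composition. The 6 genes of the CD8 T cell list summed to 3502 to 4742 CPM in every library. The SLEC marker list (6 genes with *Klrg1*) summed to 424 to 497 CPM in MPEC libraries, against 3829 to 6708 CPM in SLEC libraries, and *Klrg1* was at 1.33 to 3.74 CPM in MPEC libraries. The summed level of a B cell list (10 genes) was 252 CPM in WT SLEC day 14 replicate 1, 1153 CPM in replicate 2 and 119 CPM in WT MPEC replicate 1, against 1.67 to 22.2 CPM in the other 9. Mature B cells are known to express *Il4ra*, *Il21r* and *Il2rg*, so values with a term for B cell RNA are given beside those genes. The term was the log2 of the B cell sum plus 1, fitted with a common slope per gene over all libraries. Libraries with little B cell RNA therefore weigh in too, and the values are not levels with B cell RNA removed. Other lists were also high in WT SLEC day 14: the monocyte and macrophage list (7 genes) summed to 55.5 and 42.7 CPM there, against 6.73 to 29.5 CPM in the other libraries. The neutrophil list (6 genes) summed to 38.1 CPM in replicate 1 and 3.16 CPM in replicate 2, against 0 to 3.63 CPM in the other libraries. In RNA from a sorted pool, fewer cells of a type and less RNA per cell cannot be told apart.

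*Il7r*, the chain that binds IL-7, was at 833 and 1037 CPM in KO MPEC and at 759.8 and 998 CPM in WT MPEC on day 14. The SLEC libraries of the same day held 71.7 and 42.7 CPM in KO cells and 28.6 and 25.6 CPM in WT cells, and those of day 7 held 22.9 and 18.3 CPM in KO cells and 14.1 and 18.7 CPM in WT cells. Every MPEC library was thus above every SLEC library, and the span from the lowest to the highest library was 73.3-fold, the widest of the 7 genes. The difference between MPEC and SLEC on day 14 was 4.01 ± 0.23 (log2, SE) in KO cells and 5.02 ± 0.24 in WT cells. Set against MPEC of the same genotype, the mean *Il7r* level of SLEC was 6.12% in KO cells and 3.08% in WT cells on day 14, and 2.20% in KO cells and 1.87% in WT cells on day 7. Ranked by mean, KO MPEC came first and WT MPEC next, followed by SLEC of day 14 (KO above WT) and then SLEC of day 7 (KO above WT). The 2 MPEC groups overlapped, as did the 2 SLEC groups of day 7, while the neighbours between them did not.

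**Figure D1:**
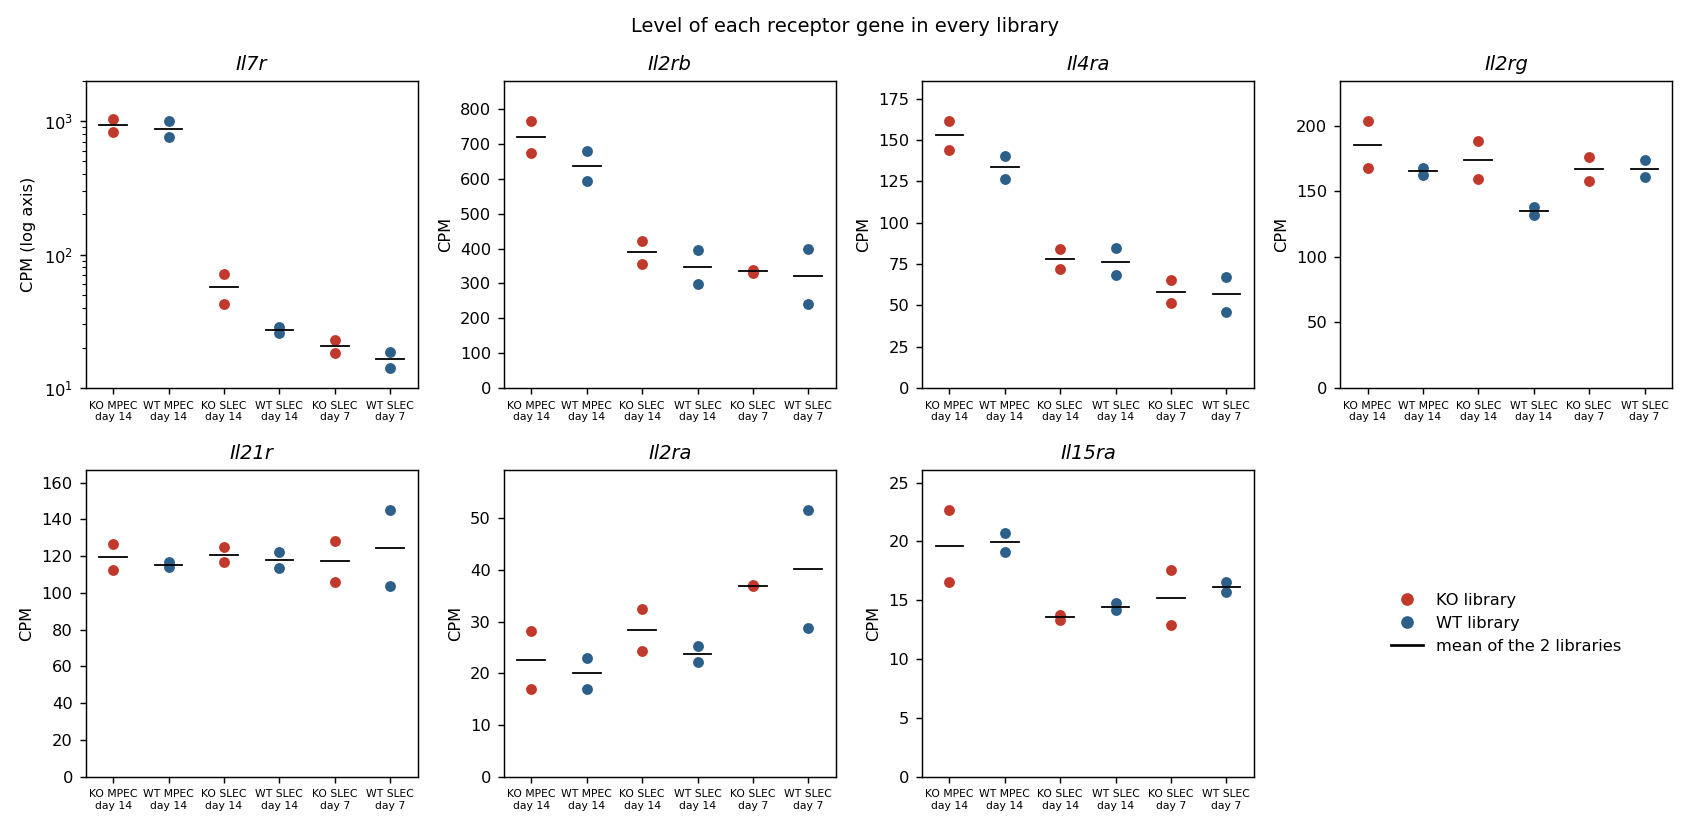
Level of each receptor gene in CPM (log axis for Il7r, linear axes from 0 for the others) in each of the 12 libraries, with points for libraries and a bar for the mean of the 2 libraries of a group. Il7r lies between 759.8 and 1037 CPM in MPEC libraries, against 14.1 to 71.7 CPM in SLEC libraries; Il2rb and Il4ra are also highest in MPEC libraries, and Il21r stays between 104 and 145 CPM.

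MPEC also had higher levels of *Il2rb* and *Il4ra* than SLEC on day 14 in both genotypes. *Il2rb*, the signalling chain of the IL-2 and IL-15 receptors, was at 673 and 766 CPM in KO MPEC, against 422 and 356 CPM in KO SLEC day 14. In WT cells it was at 593 and 679 CPM in MPEC, against 395 and 297 CPM in SLEC day 14. The MPEC and SLEC libraries did not overlap in either genotype. *Il2rb* rose by 0.89 ± 0.20 (log2, SE) in KO MPEC (edgeR adjusted p = 0.0156) and by 0.88 ± 0.20 in WT MPEC (edgeR adjusted p = 0.0126), 1.85-fold and 1.84-fold. On day 7, SLEC held 337 and 331 CPM of *Il2rb* in KO cells and 240.5 and 399 CPM in WT cells. The 2 days overlapped in WT SLEC and not in KO SLEC, where the difference of 0.22 ± 0.20 between day 14 and day 7 was not called (edgeR adjusted p = 0.494).

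*Il4ra*, the chain that binds IL-4, was at 144 and 161 CPM in KO MPEC, against 84.3 and 71.7 CPM in KO SLEC day 14. In WT cells it was at 127 and 140.2 CPM in MPEC, against 68.3 and 84.4 CPM in SLEC day 14. Here too the MPEC libraries were all above the SLEC libraries. *Il4ra* rose by 0.97 ± 0.19 in KO MPEC (edgeR adjusted p = 0.00429) and by 0.80 ± 0.19 in WT MPEC (edgeR adjusted p = 0.0111), 1.95-fold and 1.74-fold. With a term for B cell RNA in the fit, the WT difference was 0.56 ± 0.25 and was not called (edgeR adjusted p = 0.281), while the KO difference kept its call. WT SLEC day 14 replicate 2, which held the most B cell RNA, was the higher of the 2 WT SLEC day 14 libraries for *Il4ra*. A higher SLEC level makes the rise in MPEC smaller, and the term also made that rise smaller, from 0.80 to 0.56. The part of B cell RNA in the WT SLEC day 14 level of *Il4ra* was not tested further.

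These were the only calls among the 6 genes tested between MPEC and SLEC, 2 of 6 in each genotype. Across all tested genes, 5.11% were called between MPEC and SLEC in KO cells (2.90% higher and 2.21% lower) and 7.96% in WT cells (3.66% higher and 4.30% lower). The 2 comparisons share no library. The median change of the 6 genes was 0.31 in KO cells and 0.38 in WT cells, against 0.00 over all tested genes in both. Leaving out single libraries removed the *Il2rb* call in KO cells for 4 of 12 omissions (both KO SLEC day 14 and both KO MPEC libraries; edgeR adjusted p up to 0.2096) and in WT cells for 2 of 12 (WT SLEC day 14 replicate 2 and WT MPEC replicate 2; up to 0.179). The *Il4ra* call was lost in 2 of 12 omissions in KO cells (KO SLEC day 14 replicate 2 and KO MPEC replicate 2; edgeR adjusted p up to 0.105) and in 2 of 12 in WT cells (WT SLEC day 14 replicate 1 and WT MPEC replicate 2; up to 0.164).

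The remaining chains did not pass the test between MPEC and SLEC. *Il15ra*, which binds IL-15 and is known for presenting it to neighbouring cells, was at 22.7 and 16.6 CPM in KO MPEC, against 13.8 and 13.3 CPM in KO SLEC day 14, and at 19.1 and 20.7 CPM in WT MPEC, against 14.1 and 14.7 CPM in WT SLEC day 14. The groups did not overlap in either genotype, but the differences of 0.53 ± 0.27 in KO cells and 0.46 ± 0.24 in WT cells were not called (edgeR adjusted p = 0.331 and 0.295). *Il2ra*, which raises the affinity for IL-2 and marks recent activation, differed by -0.34 ± 0.30 in KO cells and by -0.23 ± 0.29 in WT cells, with overlapping libraries in both. *Il21r*, the chain that binds IL-21, differed by -0.01 in KO cells (95% interval -0.37 to 0.34) and by -0.03 in WT cells (-0.38 to 0.32). With the B cell term these were 0.066 in KO cells and -0.31 in WT cells, neither called.

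*Il2rg*, the chain that all these receptors share, was at 168 and 204 CPM in KO MPEC, against 188 and 159 CPM in KO SLEC day 14. In WT cells it was at 162 and 168 CPM in MPEC, against 138 and 132 CPM in SLEC day 14. The KO libraries overlapped and the WT libraries did not. Neither difference was called, at 0.09 in KO cells (95% interval -0.22 to 0.41) and 0.29 in WT cells (-0.02 to 0.60). With the B cell term they were 0.12 in KO cells and 0.19 in WT cells. Across all 12 libraries *Il2rg* spanned 1.55-fold and *Il21r* 1.40-fold, against 3.50-fold for *Il4ra*, 3.18-fold for *Il2rb*, 3.03-fold for *Il2ra* and 1.76-fold for *Il15ra*.

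**Figure D2:**
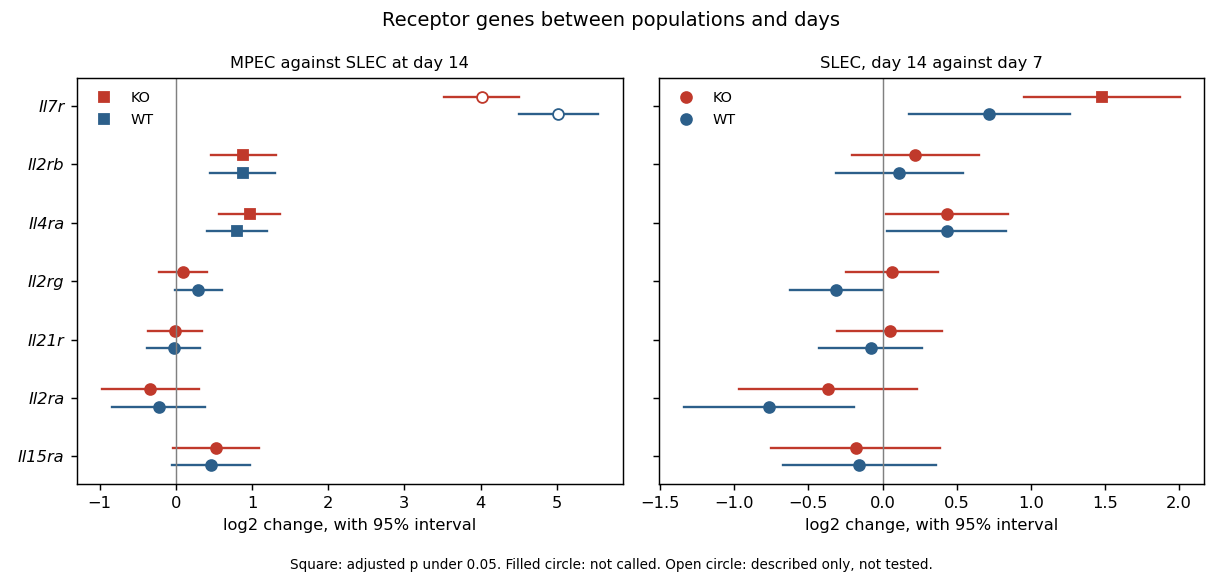
Log2 change with its 95% interval for each receptor gene, MPEC against SLEC on day 14 (left) and day 14 against day 7 in SLEC (right), in KO (red) and WT (blue) cells. Squares mark adjusted p under 0.05: Il2rb and Il4ra in both genotypes on the left, and Il7r in KO cells (1.48) on the right; the open circles for Il7r on the left (4.01 and 5.02) are described only.

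Levels of different genes were compared per kilobase of annotated exon. In MPEC, *Il7r* was the highest of the 7 genes per length, with a mean of 200.5 CPM per kb in KO cells and 188 in WT cells, ahead of *Il2rb* at 168 and 148. In each MPEC library *Il7r* per length was 2.39 to 3.04 times *Il2rg*. In SLEC that ratio was 0.137 to 0.195 in KO cells and 0.0996 to 0.106 in WT cells on day 14, and 0.0532 to 0.0744 in KO cells and 0.0417 to 0.0593 in WT cells on day 7. *Il2rb* per length was 2.03 to 2.25 times *Il2rg* in MPEC libraries, against 0.772 to 1.59 times in SLEC libraries, where these 2 chains led the family. *Il2ra* and *Il15ra* were the lowest outside the SLEC libraries of day 7, with group means of 3.51 to 4.48 CPM per kb in MPEC and 3.05 to 4.97 CPM per kb in SLEC of day 14.

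**Figure D3:**
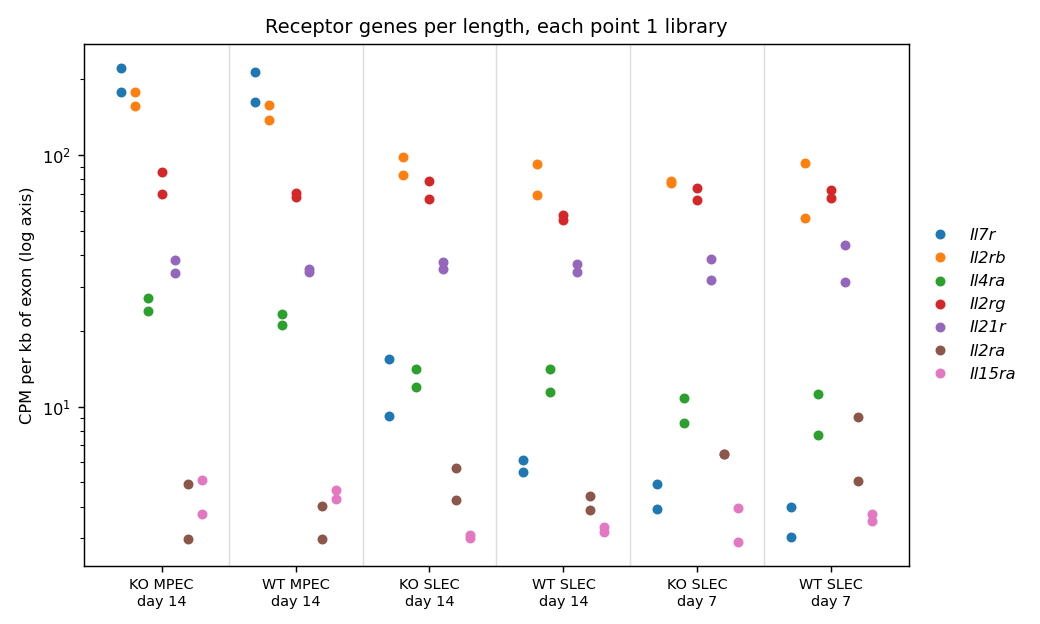
CPM per kb of exon (log axis) for the 7 receptor genes, 1 point per library, in the 6 groups. Il7r leads the family in MPEC (163 to 222 CPM per kb) and lies below Il2rb, Il2rg and Il21r in every SLEC library (3.03 to 15.4 CPM per kb).

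Between day 14 and day 7, *Il7r* changed in SLEC of KO cells. It was at 71.7 and 42.7 CPM on day 14, against 22.9 and 18.3 CPM on day 7, so the days did not overlap. The rise was 1.48 ± 0.25 (log2, SE), 2.79-fold (edgeR adjusted p = 8.3e-04), and it was called in all 12 omissions of 1 library (edgeR adjusted p up to 0.0203). It was the only call among the 7 genes, where 17.2% of all tested genes were called (7.70% higher and 9.50% lower). In WT SLEC, *Il7r* was at 28.6 and 25.6 CPM on day 14, against 14.1 and 18.7 CPM on day 7. The days did not overlap, and the difference of 0.72 ± 0.26 was not called (edgeR adjusted p = 0.0886). DESeq2 called it (0.73 ± 0.23, adjusted p = 0.0201). The difference between the genotypes in this change was 0.76 ± 0.36 and was not called (edgeR adjusted p = 0.755), so the change is not shown to differ between KO and WT cells.

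The other 6 genes did not pass between days. In WT SLEC 0 of 7 genes were called, where 9.94% of all tested genes were (4.69% higher and 5.25% lower), while 4 of the 7 had an unadjusted p under 0.05 (*Il7r*, *Il2ra*, *Il2rg* and *Il4ra*), as had 3414 (23.6%) of all tested genes, and DESeq2 called 1, *Il7r*. *Il4ra* differed by 0.43 ± 0.20 in KO cells and 0.43 ± 0.19 in WT cells, with no overlap between days in either genotype (edgeR adjusted p = 0.141 and 0.174). Over the 12 omissions the WT difference ran from 0.20 to 0.73, and it was called without WT SLEC day 7 replicate 1 (edgeR adjusted p = 0.0305). *Il2ra* was at 32.5 and 24.3 CPM on day 14 in KO SLEC, against 37.0 and 36.9 CPM on day 7. In WT SLEC it was at 25.2 and 22.1 CPM on day 14, against 28.8 and 51.7 CPM on day 7. Its differences were -0.37 ± 0.29 in KO cells and -0.77 ± 0.27 in WT cells (edgeR adjusted p = 0.407 and 0.0863), and without WT SLEC day 7 replicate 2, whose 51.7 CPM was the highest *Il2ra* level of all libraries, the WT difference was -0.27. Without WT SLEC day 7 replicate 1 it was -1.13 and called (edgeR adjusted p = 0.00581). *Il2rg* differed by 0.06 ± 0.15 in KO cells and -0.31 ± 0.15 in WT cells (edgeR adjusted p = 0.814 and 0.208).

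Between Rroid2 KO and Rroid2 WT cells, 1 of the 7 genes passed the test, in 1 of the 3 populations. In SLEC on day 14, *Il7r* was at 71.7 and 42.7 CPM in KO cells, against 28.6 and 25.6 CPM in WT cells. Both KO libraries were above both WT libraries, and the KO libraries differed from each other by more than the WT libraries did. *Il7r* rose by 1.10 ± 0.24 (log2, SE) in KO cells, 2.14-fold with a 95% interval of 0.60 to 1.60 on the log2 scale (edgeR adjusted p = 0.0496). Across all tested genes 0.539% were called in that comparison (0.0692% higher and 0.470% lower). The adjusted p lies just under the threshold of 0.05 and the call was kept in 4 of 12 omissions of 1 library. It was lost without any 1 of the KO SLEC day 7, KO SLEC day 14, WT SLEC day 14 and KO MPEC libraries. Over all 12 omissions the change ran from 0.65, without KO SLEC day 14 replicate 1, to 1.39, without KO SLEC day 14 replicate 2, and the edgeR adjusted p from 0.0376 to 0.385. The KO SLEC day 14 libraries are those of the day and population comparisons too, so those values are not independent of this one. With a term for B cell RNA the change was 1.06 ± 0.45 and not called (edgeR adjusted p = 0.793), while DESeq2 called it (adjusted p = 6.7e-04). The term moved the estimate little and widened its SE. The B cell sums were 12.5 and 6.32 CPM in KO SLEC day 14, against 252 and 1153 CPM in WT SLEC day 14. The term and the genotype are therefore hard to tell apart in this comparison.

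Other markers of MPEC moved with *Il7r* in these SLEC libraries. The 8 genes of the MPEC list without *Il7r* summed to 969 and 1000.4 CPM in KO SLEC day 14, against 614 and 544 CPM in WT SLEC day 14, with 2110 and 2243 CPM in KO MPEC and 1835 and 2192 CPM in WT MPEC for scale. The genes did not move alike between the KO libraries. *Tcf7*, a transcription factor of memory precursors, was at 446 and 183 CPM in KO replicates 1 and 2, against 214 and 181 CPM in WT. *Lef1*, its relative, was at 294 and 695 CPM in KO, against 235 and 178 CPM in WT. *Eomes* was at 133 and 33.0 CPM in KO, against 71.8 and 68.6 CPM in WT. *Id3* was at 0 counts in KO SLEC day 14 replicate 1 and *Ccr7* in replicate 2, while *Klrg1* was at 154 and 157 CPM in KO SLEC day 14, against 152 and 132 CPM in WT SLEC day 14. The part of cells with MPEC markers in the *Il7r* level, and of the B cell RNA in the WT libraries, was not tested further.

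In the other populations none of the 7 genes passed between KO and WT cells. In MPEC, 0 of 7 genes were called by edgeR or DESeq2, where edgeR called 0.0138% of all tested genes. An unadjusted p under 0.05 was found for 0 of the 7, against 2.46% of all tested genes. *Il7r* differed by 0.09 in MPEC (95% interval -0.33 to 0.51), and the widest difference was that of *Il4ra*, 0.20 ± 0.18, whose KO libraries were both above the WT libraries. In SLEC on day 7, 0 of 7 genes were called by either tool, where edgeR called 0.0277% of all tested genes. Again 0 of the 7 had an unadjusted p under 0.05, against 3.37% of all tested genes. There *Il7r* differed by 0.34 ± 0.27 and the other 6 by -0.12 to 0.06. In SLEC on day 14, *Il2rg* was at 188 and 159 CPM in KO cells, against 138 and 132 CPM in WT cells. These groups did not overlap, and the difference of 0.37 ± 0.15 was not called (edgeR adjusted p = 0.304). With the B cell term it was 0.20 ± 0.27, and that of *Il21r* was -0.44 ± 0.29, against 0.04 ± 0.17 without the term. The remaining 5 genes differed there by -0.09 to 0.28.

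**Figure D4:**
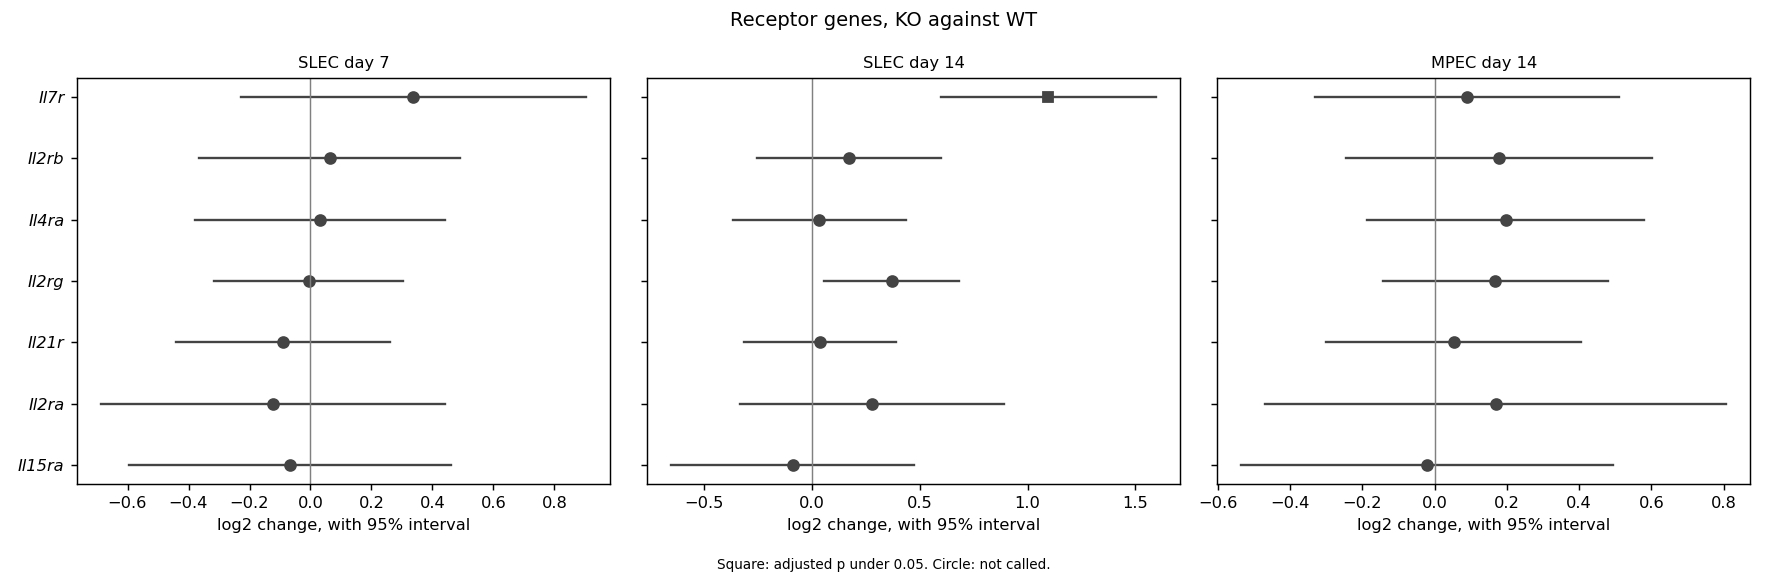
Log2 change of KO against WT cells with its 95% interval for each receptor gene, with a panel each for SLEC of day 7, SLEC of day 14 and MPEC; the x axes differ between panels. The square marks the 1 gene with adjusted p under 0.05, Il7r in SLEC on day 14 (1.10); its values in SLEC on day 7 (0.34) and MPEC (0.09) are circles, not called.

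Averaged over the 3 populations, 0 of 7 genes were called by edgeR, where 0.0830% of all tested genes were called (0.0415% higher and 0.0415% lower). *Il7r* alone of the 7 had an unadjusted p under 0.05, as had 8.26% of all tested genes. Its mean difference was 0.51 ± 0.14 (edgeR adjusted p = 0.311), and DESeq2 called it (adjusted p = 0.0222). The KO effect on *Il7r* in SLEC on day 14 minus that in SLEC on day 7 was 0.76 ± 0.36 (95% interval 0.00 to 1.51), and that in MPEC minus that in SLEC on day 14 was -1.01 ± 0.31 (-1.66 to -0.35). Neither difference was called by edgeR (adjusted p = 0.755 and 1.00), where 0.00692% and 0% of all tested genes were called, nor by DESeq2. Without the filter on low counts, edgeR called the difference between MPEC and SLEC (-0.99, adjusted p = 0.0340). In each of these 2 tests *Il7r* was the 1 gene of the 7 with an unadjusted p under 0.05. Over all tested genes 951 had such a p in the first and 612 in the second. Whether the difference in KO effect on *Il7r* between MPEC and SLEC was called thus depended on the filter. Its estimate was -1.01 with the filter and -0.99 without it.

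The surroundings of the receptors were followed in 53 genes, of which 47 were tested: ligands, other receptor chains, signal transducers, feedback inhibitors, targets of STAT5 and survival genes, regulators of *Il7r*, and genes that Foxo1 also drives. *Il2*, *Il4*, *Il7*, *Il9*, *Il21* and *Il13ra1* were not tested, with 0 to 28 counts over all 12 libraries, and *Il15* was the 1 ligand tested. Between KO and WT cells, 0 of 47 genes were called by edgeR in all 3 populations, their mean and both differences of effects. In SLEC on day 14, 13 of the 47 had an unadjusted p under 0.05, as had 1803 (12.5%) of all tested genes, and DESeq2 called 1, *Runx1*, a known regulator of *Il7r*. *Runx1* was at 260.3 ± 35.5 CPM in KO cells and 174 ± 1.13 CPM in WT cells (SD, n = 2 each), a difference of 0.58 ± 0.15 (edgeR adjusted p = 0.0795). *Jak3*, the kinase bound by the common gamma chain, was at 75.1 ± 3.03 CPM in KO cells and 112 ± 5.71 CPM in WT cells, a difference of -0.57 ± 0.16 (edgeR adjusted p = 0.0963). All 11 regulators of *Il7r* had a positive difference there, with a median of 0.25 against -0.02 over all tested genes, and 0 of the 11 were called. That list was chosen with earlier results of these data known, so nothing is read from the shared direction.

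Between MPEC and SLEC, 8 of the 47 genes were higher and 4 lower in each genotype, 25.5%, against 5.11% of all tested genes in KO cells and 7.96% in WT cells, and 10 were called in the same direction in both. The lists were chosen with earlier results of these data known, so nothing is read from that share. Among feedback inhibitors, *Socs3* was at 35.1 ± 10.2 CPM in KO MPEC and 0.441 ± 0.235 CPM in KO SLEC day 14 (SD, n = 2 each), and at 33.9 ± 4.57 CPM in WT MPEC and 2.11 ± 0.0641 CPM in WT SLEC day 14. It had 2 and 6 counts in the KO SLEC day 14 libraries. It rose by 6.21 ± 0.67 in KO MPEC and by 3.99 ± 0.44 in WT MPEC (edgeR adjusted p = 1.3e-05 and 1.8e-05). *Socs1*, which inhibits JAK kinases, rose by 1.94 ± 0.35 in KO MPEC and by 0.96 ± 0.29 in WT MPEC (edgeR adjusted p = 0.00245 and 0.0462); the WT call was kept in 4 of 12 omissions. The 3 STAT5 targets and survival genes that rose in both genotypes were *Bcl2*, *Pim2* and *Myc*. *Bcl2*, which blocks cell death, was at 262 ± 22.4 CPM in KO MPEC and 110.2 ± 18.9 CPM in KO SLEC day 14, and at 242 ± 3.68 CPM in WT MPEC and 83.5 ± 11.7 CPM in WT SLEC day 14. Its rise was 1.25 ± 0.25 in KO cells and 1.54 ± 0.24 in WT cells (edgeR adjusted p = 0.00758 and 0.00167); the KO call was lost without KO SLEC day 14 replicate 1 or KO MPEC replicate 1 (up to 0.102).

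Regulators of *Il7r* went both ways between the populations, with 1 of 11 higher and 1 lower in each genotype. *Foxo1*, an activator of *Il7r*, was at 194 ± 7.56 CPM in KO MPEC and 121 ± 9.94 CPM in KO SLEC day 14, and at 202 ± 40.0 CPM in WT MPEC and 107 ± 6.16 CPM in WT SLEC day 14. It rose by 0.68 ± 0.16 in KO MPEC and by 0.92 ± 0.15 in WT MPEC (edgeR adjusted p = 0.0132 and 0.00107). The KO call was lost without any 1 of the 4 libraries compared (edgeR adjusted p up to 0.154) and the WT call without WT MPEC replicate 2 (0.0550). *Runx1* fell by 1.70 ± 0.16 in KO MPEC and fell by 1.20 ± 0.15 in WT MPEC (edgeR adjusted p = 2.3e-06 and 8.2e-05). *Ccr7*, a homing receptor gene that Foxo1 is known to drive, rose by 4.39 ± 0.53 in KO MPEC and by 2.88 ± 0.38 in WT MPEC (edgeR adjusted p = 2.9e-05 and 7.5e-05). It had 22 and 0 counts in the KO SLEC day 14 libraries, and its KO change ran from 3.59 to 11.3 over the omissions. *Klf2*, which Foxo1 also drives, fell by 0.85 ± 0.16 in KO MPEC (edgeR adjusted p = 0.00339; 0.0641 without KO MPEC replicate 1) and differed by -0.47 ± 0.16 in WT MPEC (edgeR adjusted p = 0.0821). *Gab2*, an adaptor of cytokine receptors, fell by 4.37 ± 0.94 in KO MPEC and fell by 4.02 ± 0.87 in WT MPEC, at levels of 7.28 CPM or less and 0 to 5 counts in the MPEC libraries. The *Gab2* call was lost without KO SLEC day 14 replicate 1 or KO MPEC replicate 2 in KO cells and without either MPEC library in WT cells (edgeR adjusted p up to 0.181 and 0.125). *Il9r*, another chain of the family, was called lower in WT MPEC; it was at 7.95 and 43.5 CPM in WT SLEC day 14, the libraries with the most B cell RNA, and not called with the B cell term (edgeR adjusted p = 0.843). With that term, added for these genes after the data were seen, 8 genes were higher and 4 lower in KO cells, and 6 higher and 4 lower in WT cells.

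**Figure D5:**
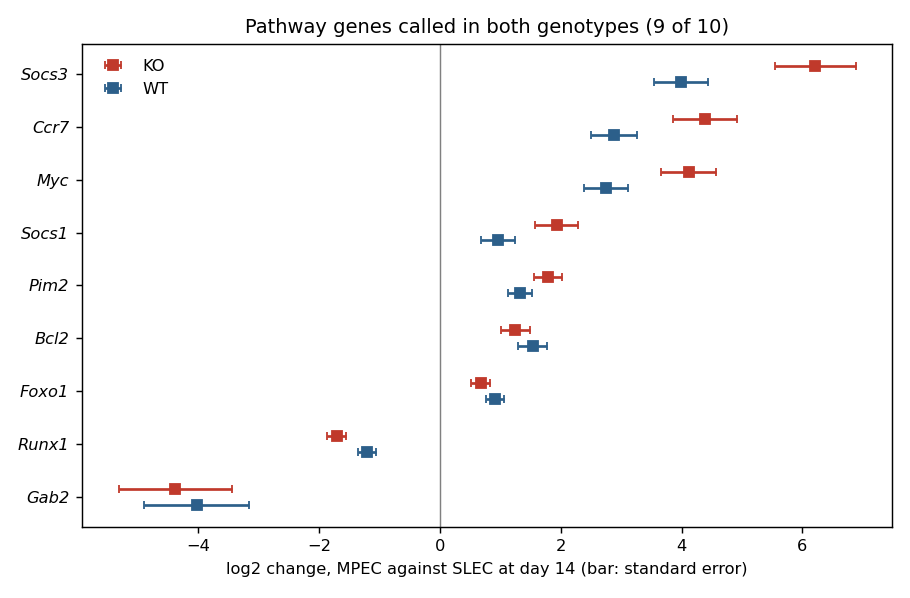
Log2 change of MPEC against SLEC on day 14, with its standard error, for 9 of the 10 pathway genes called in the same direction in KO (red) and WT (blue) cells, ordered by the KO value. Socs3 is at the top (6.21 in KO and 3.99 in WT cells), and Runx1 (-1.70 and -1.20) and Gab2 (-4.37 and -4.02) are the 2 that fell.

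Between day 14 and day 7 in KO SLEC, 12 of the 47 genes were higher and 2 lower (29.8%, against 17.2% of all tested genes), and 6 of them were regulators of *Il7r*: *Foxo3*, *Foxp1*, *Runx1*, *Runx3*, *Nr3c1* and *Notch1*. *Runx1* was at 260.3 ± 35.5 CPM on day 14 and 128 ± 5.92 CPM on day 7 (SD, n = 2 each), a rise of 1.02 ± 0.15 (edgeR adjusted p = 2.2e-04). *Foxp1*, known to oppose Foxo1 at *Il7r*, rose by 1.02 ± 0.19 and *Foxo3* by 1.42 ± 0.22 (edgeR adjusted p = 0.00132 and 3.7e-04). *Foxo1* itself differed by 0.37 ± 0.16 (edgeR adjusted p = 0.122). *Socs3* fell by 3.98 ± 0.88 and *Jak3* fell by 0.67 ± 0.16 (edgeR adjusted p = 0.00464 and 0.00705), and both calls were lost without either KO SLEC day 14 library (up to 0.0811 and 0.0725). In WT SLEC 8 of the 47 genes were higher and 0 lower (17.0%, against 9.94% of all tested genes), none of them a regulator of *Il7r*, while DESeq2 called 9 higher. In each genotype 10 of the 11 regulators had a positive difference between days. Since the lists were chosen with earlier results of these data known, nothing is read from these shares or from the number of regulators. *Bcl2*, *Ccnd2* and *Sh2b3* were called in both genotypes, *Sh2b3* in KO SLEC not without KO SLEC day 7 replicate 1 or KO SLEC day 14 replicate 1: *Bcl2* rose by 2.01 ± 0.27 in KO and 1.65 ± 0.27 in WT SLEC (edgeR adjusted p = 3.0e-04 and 0.00171). For 0 of the 47 genes was the difference between the genotypes in this change called. The WT count fell to 3 with the B cell term and to 4 without WT SLEC day 14 replicate 2, against 14 and 12 higher in KO SLEC.

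Across the 12 libraries, the genes whose log2 CPM ran most like that of *Il7r* were *Il6st* (Pearson r = 0.983), *Vipr1* (0.981), *Usp53* (0.980), *Inpp4b* (0.979) and *Kbtbd11* (0.978), among 7845 genes compared. The libraries fall into an MPEC and a SLEC set, so a gene that separates those sets scores high, and the values are given as a description. *Il6st*, the signalling chain of the IL-6 family of receptors, was at 91.6 and 95.4 CPM in KO MPEC and 74.6 and 83.9 CPM in WT MPEC, against 29.7 to 41.7 CPM in SLEC libraries. *Vipr1*, a receptor for vasoactive intestinal peptide, was at 47.7 to 54.8 CPM in MPEC libraries, against 2.55 to 7.69 CPM in SLEC libraries. Within the family, *Il7r* ran with *Il2rb* (r = 0.944) and *Il4ra* (0.936), against *Il2ra* (-0.637), and apart from *Il21r* (-0.109). The genes closest to the others were *Kbtbd11* for *Il2rb* (0.978), *Evl* for *Il4ra* (0.979), *Lin7c* for *Il2rg* (0.965), *M6pr* for *Il2ra* (0.938), *Hdac7* for *Il15ra* (0.923) and *Phospho2* for *Il21r* (0.869).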

How the data were processed

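Per the labels' protocols, RNA of sorted OT-I cells went into stranded SMART-Seq libraries. The authors deposited raw read counts for each gene; their processing, per the submitters' processing notes, used bcl2fastq, STAR 2.6.1a and GRCm38. The sources used here do not state the counting program, the annotation release or the strand setting. Totals ran from 7603551 to 14026594 counts per library.

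All 12 libraries entered a single robust quasi-likelihood model in edgeR 4.0.16 (R 4.3.3, limma 3.58.1), with a term for each of the 6 groups. It left 6 residual degrees of freedom, and the median prior ones were 11.9. Before it, filterByExpr kept 14460 genes, which hold 99.7% or more of the counts of every library, and trimmed mean of M-values factors set the scale. There were 10 comparisons, 2-sided; a call means an adjusted p (Benjamini-Hochberg, over all tested genes of that comparison) under 0.05. Levels are CPM with SD (n = 2), changes log2 with SE. Likeness was Pearson's r of log2 CPM (prior count 2) where the mean was 3 or more.

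Named beside the 7 genes were up to 3 called genes of each pathway list per comparison, those with the smallest p. *Runx1* and *Jak3* between KO and WT cells, *Foxo1* and *Klf2* where not called, and *Runx3*, *Nr3c1* and *Notch1* were named after their values were seen. Of the genes this rule names, 1 is not reported here. The members and lists were chosen with earlier results of these data known. Exon lengths and positions came from GENCODE M21, and promoters from RefSeq GRCm38.p6. The model was tested on simulated counts. Alternatives were DESeq2 1.42.0, RLE normalization, no filter, the replicate number as a block, a B cell RNA term and leaving out each library; counts of pathway genes under some of these were added after seeing the data.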

Additional observations from a re-analysis of the deposited data

How the results depend on the processing

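The limits are 2 libraries a group, gates that the sources used here do not give, and RNA of other cell types. B cell and monocyte list sums were high in the WT SLEC day 14 libraries, and the neutrophil sum in replicate 1 of them alone. The B cell sum was also high in WT MPEC replicate 1. A term was fitted for B cell RNA alone. A further limit is that the *Il7r* call between KO and WT SLEC day 14 lies just under the threshold. *Il7r* between day 14 and day 7 in KO SLEC was called under every alternative run. Except where a value is given beside it, the cause of a difference between settings was not tested.

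No clear pairing by replicate number was seen: over 15 pairs of groups the correlation of same-numbered deviations ran from -0.133 to 0.117, with 2 over 0.1. This check cannot tell whether same-numbered libraries share a host or a batch, which the sources used here do not state. With the replicate number as a block, *Il7r* between KO and WT SLEC day 14 was at 1.10 and not called (edgeR adjusted p = 0.0518), so 0 of the 7 genes were called there. With the block, 130 genes in all were called in that comparison, 2 for the difference in KO effect between SLEC of day 14 and of day 7, and the mean KO effect on *Il21r* was 0.00168.

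Between KO and WT SLEC day 14, 78 genes were called, against 506 without the filter, 15 with the B cell term and 246 with DESeq2, and 0 of the 7 with the B cell term. In SLEC day 7 the count was 4, against 23 without the filter. In MPEC it was 2, against 7 without the filter and 5 with DESeq2. For the mean of the 3 populations it was 12, against 167 without the filter and 89 with DESeq2, with 1 of the 7 called in each. For the KO effect between days it was 1, against 109 without the filter and 28 with DESeq2. For the KO effect between populations it was 0 (612 at an unadjusted p under 0.05), against 23 without the filter, 1 of them *Il7r*. Between days in WT SLEC, 2 of the 7 genes were called without the filter and 1 with DESeq2, and 521 genes in all with the B cell term, against 1437. Between MPEC and SLEC in WT cells, 1 of the 6 genes and 562 genes in all were called with the B cell term, against 1151.

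Leaving out 1 library at a time, the genes called between KO and WT cells numbered 2 to 209 in SLEC day 7, 2 to 223 in SLEC day 14 (0 to 1 of the 7), 2 to 4 in MPEC and 7 to 59 for the mean. They numbered 0 to 96 for the KO effect between days and 0 to 4 for that between populations. Between days they numbered 834 to 2930 in KO SLEC and 417 to 1563 in WT SLEC (0 to 2 of the 7). Between MPEC and SLEC they numbered 249 to 982 in KO cells and 277 to 1470 in WT cells (0 to 2 of the 6 in each).

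Signs turned only for differences that were not called. In SLEC day 7, *Il2rg* between KO and WT was 0.0032 with another normalization, 0.0090 without the filter, 0.0054 with the B cell term and 0.0039 with DESeq2. The B cell term gave, for KO against WT, *Il15ra* 0.10, *Il21r* -0.44 and *Il4ra* -0.36 in SLEC day 14, *Il15ra* 0.023 and *Il21r* -0.061 in MPEC, and *Il15ra* 0.016 and *Il4ra* -0.061 for the mean. It gave *Il15ra* 0.18, *Il21r* -0.40 and *Il4ra* -0.43 for the KO effect between days, *Il2rb* -0.17 and *Il15ra* -0.080 for that between populations, *Il2rb* -0.12 and *Il21r* 0.44 between days in WT SLEC, *Il21r* 0.066 between MPEC and SLEC in KO cells, and *Il2ra* 0.26 in WT cells. The mean KO effect on *Il21r* was 0.0077 with another normalization and 0.0080 with DESeq2. The KO effect on *Il4ra* between days was -0.0062 with another normalization, -0.012 with DESeq2 and -0.042 without the filter.

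Over the omissions, KO against WT ran in SLEC day 7 from -0.48 to 0.38 for *Il2ra*, -0.26 to 0.49 for *Il2rb*, -0.10 to 0.082 for *Il2rg*, -0.32 to 0.11 for *Il15ra*, -0.30 to 0.17 for *Il21r* and -0.20 to 0.32 for *Il4ra*. In SLEC day 14 it ran from -0.024 to 0.37 for *Il2rb*, -0.019 to 0.072 for *Il21r* and -0.13 to 0.19 for *Il4ra*. In MPEC it ran from -0.10 to 0.29 for *Il7r*, -0.25 to 0.48 for *Il2ra*, -0.27 to 0.18 for *Il15ra* and -0.045 to 0.13 for *Il21r*. The mean ran from -0.036 to 0.27 for *Il2ra*, -0.15 to 0.0043 for *Il15ra* and -0.074 to 0.082 for *Il21r*. The KO effect between days ran from -0.11 to 0.76 for *Il2ra*, -0.33 to 0.42 for *Il2rb*, -0.21 to 0.22 for *Il15ra*, -0.14 to 0.32 for *Il21r* and -0.30 to 0.22 for *Il4ra*. That between populations ran from -0.52 to 0.21 for *Il2ra*, -0.20 to 0.20 for *Il2rb*, -0.17 to 0.28 for *Il15ra* and -0.076 to 0.10 for *Il21r*. Between days it ran in KO SLEC from -0.063 to 0.16 for *Il2rg*, -0.37 to 0.060 for *Il15ra* and -0.10 to 0.19 for *Il21r*, and in WT SLEC from -0.21 to 0.54 for *Il2rb* and -0.29 to 0.18 for *Il21r*. Between MPEC and SLEC it ran in KO cells from -0.062 to 0.22 for *Il2rg* and -0.11 to 0.065 for *Il21r*, and in WT cells from -0.090 to 0.00051 for *Il21r*.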
